A study of Homo sapiens with 4 samples.

Results

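Heat shock proteins are molecular chaperones, which bind unfolded or partly folded proteins and either help them fold or hold them until they can be degraded. Here 10 genes of this class were followed, namely HSPA1A, HSPA1B, HSPA8, HSPH1, DNAJB1, HSPB1, HSP90AA1 and HSP90AB1 of the cytosol and nucleus, and HSPD1 and HSPE1 of the mitochondrial matrix. They were taken by gene symbol, and all 10 were found among the 58302 genes of the deposited data. The cells were HepG2, a human hepatocellular carcinoma line, labelled WT in genotype. They received melatonin at 1 mM or DMSO, the solvent control, for 24 h or 48 h, and polyadenylated RNA of 1 culture per condition was sequenced. The 4 libraries are therefore a melatonin and a DMSO library at each of both times, and every difference below is a difference between a pair of libraries, with no replicate, no p-value and no spread between cultures to compare it with.

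In the HSP70 system a J-domain protein such as DNAJB1 brings a client to HSP70 and stimulates ATP hydrolysis, after which an exchange factor such as HSPH1 (HSP110) releases the nucleotide. HSP90 acts later, on nearly folded clients such as kinases and steroid receptors, while the small heat shock protein HSPB1 holds unfolded proteins without using ATP. In mitochondria HSPD1 (HSP60) forms a folding chamber that HSPE1 (HSP10) closes. When unfolded proteins accumulate, heat shock factor 1 (HSF1) forms trimers, binds heat shock elements, which are inverted repeats of the unit GAA, and raises transcription of many of these genes. HSPA8 and HSP90AB1 are known as the constitutive partners of the inducible HSPA1A, HSPA1B and HSP90AA1. In hepatocytes, which secrete large amounts of protein, several of these chaperones are abundant without any stress.

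The measurements are FPKM, that is, fragments divided by the length of the gene in kb and by a scaled library size, from which whole reads were recovered. The libraries held 21616676 to 23086025 reads on genes. The 8 hepatocyte markers examined lay between 34.9 and 3343 FPKM, and of 8 markers of blood, endothelial and stromal cells only ACTA2 reached an FPKM of 1 in every library, with 3.81 at most. The share of reads on genes of the mitochondrial genome was 20.0% in DMSO 24 h, 16.6% in melatonin 24 h, 9.77% in DMSO 48 h and 11.9% in melatonin 48 h. RNA of a whole culture cannot tell fewer cells that express a gene from less RNA per cell. Intervals below are exact 95% intervals of the reads (Poisson for a level, Clopper-Pearson for a ratio of libraries) and cover counting error only.

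HSPA1A (ENSG00000204389, chr6:31815464-31817946) and HSPA1B (ENSG00000204388, chr6:31827735-31830255) lie side by side on the plus strand of hg38, and each is a single exon in GENCODE 44. HSPB1 (ENSG00000106211) is at chr7:76302544-76304295, DNAJB1 (ENSG00000132002) at chr19:14514770-14529770 and HSPH1 (ENSG00000120694) at chr13:31134974-31162388. HSPA8 (ENSG00000109971) is at chr11:123057489-123063230, HSP90AA1 (ENSG00000080824) at chr14:102080738-102139699 and HSP90AB1 (ENSG00000096384) at chr6:44246166-44253888. HSPD1 (ENSG00000144381, chr2:197486581-197516737) and HSPE1 (ENSG00000115541, chr2:197499994-197503457) are on opposite strands of chromosome 2, with HSPE1 wholly inside the annotated span of HSPD1, and their GENCODE 44 canonical starts, at 197499840 and 197500379, lie head to head. These coordinates are those of the deposited files.

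The heat shock element was searched as letters around the annotated RefSeq start sites of these genes (GRCh38.p14, 250 bases before to 50 after each start, both strands). In the form of 2 units, GAANNTTC or TTCNNGAA, it was found in 9 of the 16 windows of these genes, against 13.5% of all 35116 windows. These 9 windows belonged to 8 of the 10 genes, with no match in the windows searched for HSPH1 and HSPE1. In the form of 3 units, GAANNTTCNNGAA or TTCNNGAANNTTC, which contains the form of 2 units, it was found in 4 of the 16, against 0.490% of all windows, 1 window each of HSPA8, HSP90AA1, HSP90AB1 and HSPD1. The stretches below are shown because they set the genes whose levels differed most between melatonin and DMSO at 48 h (HSPB1, HSPA1A, HSPA1B) beside the HSP90 genes and DNAJB1, and the capitals mark the matched units.
HSPA1A, chr6:31815422-31815459, plus strand: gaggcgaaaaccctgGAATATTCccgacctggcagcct
HSPA1B, chr6:31827618-31827655, plus strand: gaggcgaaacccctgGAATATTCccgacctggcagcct
HSPB1, chr7:76302476-76302513, plus strand: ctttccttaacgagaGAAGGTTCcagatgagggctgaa
DNAJB1, chr19:14518422-14518489, minus strand: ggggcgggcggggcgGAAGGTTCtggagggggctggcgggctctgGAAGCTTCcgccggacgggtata
HSP90AA1, chr14:102087090-102087147, minus strand: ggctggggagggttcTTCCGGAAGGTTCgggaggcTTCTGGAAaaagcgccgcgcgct
HSP90AB1, chr6:44247763-44247858, plus strand: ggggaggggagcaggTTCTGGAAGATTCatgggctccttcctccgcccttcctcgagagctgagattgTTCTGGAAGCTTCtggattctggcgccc

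HSPA1A and HSPA1B carried the same 8 letters at nearly the same distance, from -106 and from -105 relative to the start, and their windows were identical in 277 of 299 compared bases. HSPB1 had a single match of 2 units, farther upstream, from -182 to -175. HSP90AA1 had 3 units from -88 to -76 and a further pair from -68 to -61. The matches of HSP90AB1 belonged to a RefSeq start 842 bases downstream of the GENCODE 44 canonical start, and the window at the canonical start held none. The map of matches by distance from the start shows that HSPA8 had 3 units at 2 places and HSPD1 an overlapping run near -240. The HSPD1 run lay within chr2:197500053-197500090, between the starts of HSPD1 and HSPE1. It was outside the HSPE1 window, which began at 197500129, and was not counted for HSPE1. The only HSPH1 window was at a RefSeq start at -484 from the GENCODE 44 canonical start, which was itself not searched. Only exact units were searched, so an element with an altered unit was not counted or was counted as a shorter one. A match is a description of letters, and nothing here measured binding of HSF1.

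**Figure D1:**
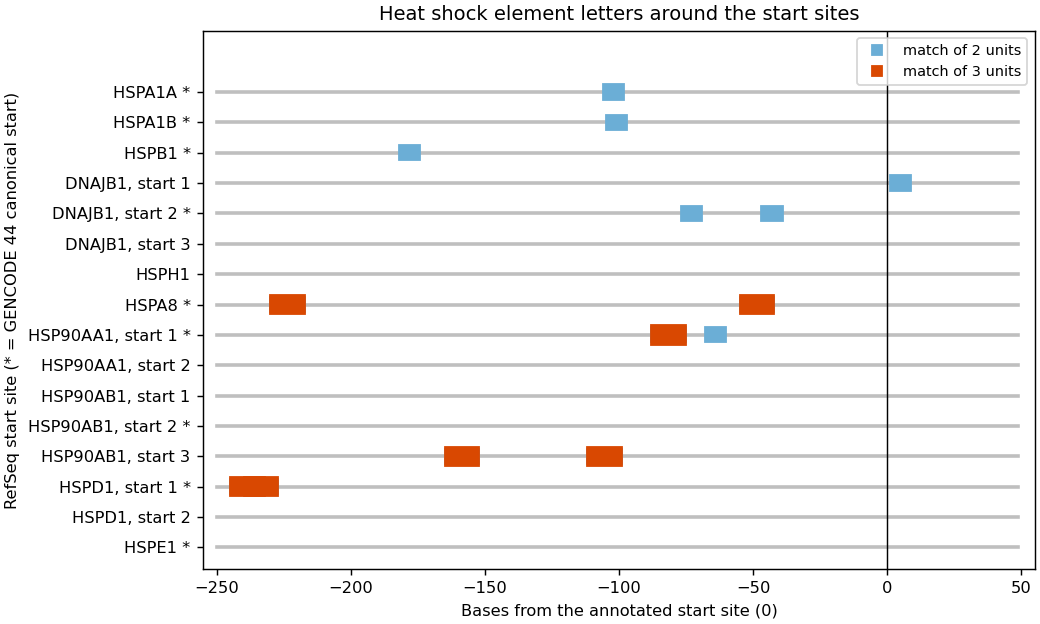
Positions of heat shock element letters in the 16 RefSeq start windows of the 10 genes, by distance in bases from the start site at 0. Each grey line is 1 window, blue boxes are matches of 2 units and orange boxes matches of 3 units, and an asterisk marks a start that is also the GENCODE 44 canonical start. HSPA8, HSP90AA1, HSP90AB1 (start 3) and HSPD1 hold 3 units, while HSPA1A, HSPA1B and HSPB1 hold a single match of 2.

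The 10 genes together took 0.668% of the reads on genes in DMSO 24 h, 0.561% in melatonin 24 h, 0.614% in DMSO 48 h and 0.579% in melatonin 48 h. HSP90AB1, the constitutive cytosolic HSP90, had the highest level per length in every library, followed by HSPD1. In DMSO 24 h the order in FPKM was HSP90AB1 (960.5), HSPD1 (487.2), HSP90AA1 (278.7), HSPA8 (170.3), DNAJB1 (62.4), HSPA1B (41.7), HSPE1 (38.5), HSPA1A (23.0), HSPB1 (22.2) and HSPH1 (16.8). Of these neighbours, HSPA1B and HSPE1, and HSPA1A and HSPB1, had overlapping counting intervals. At 48 h HSPA8 stood above HSP90AA1 in both libraries, whereas at 24 h it stood below. In DMSO 48 h the intervals of HSPE1, HSPB1 and HSPA1B overlapped in turn, and in melatonin 48 h those of HSPA1B and DNAJB1 did. HSPB1 was last in both melatonin libraries and was above HSPH1 in both DMSO libraries. FPKM depends on the deposited gene length, which for HSPB1 was 1634 bp against 777 bp of its canonical transcript and for HSPE1 1977 bp against 557 bp, so that the order between genes would shift with another length while ratios between libraries would not.

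**Figure D2:**
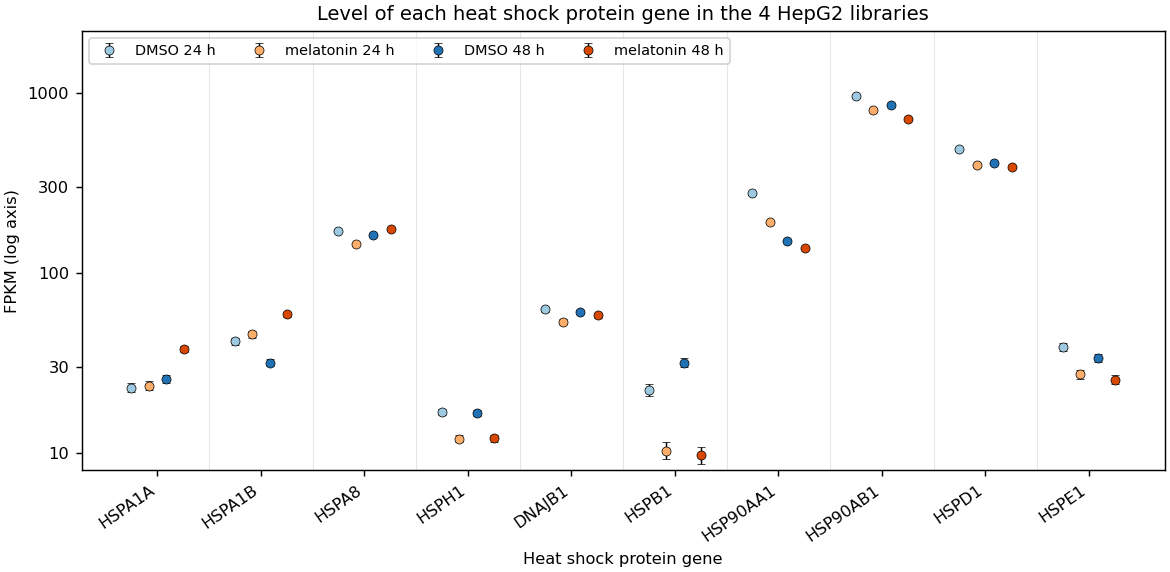
Level of each of the 10 heat shock protein genes in FPKM on a log axis, 1 point per library (pale blue DMSO 24 h, pale orange melatonin 24 h, dark blue DMSO 48 h, dark orange melatonin 48 h), with exact 95% Poisson intervals of the recovered reads. HSP90AB1 lies between 712.8 and 960.5 and HSPB1 between 9.67 and 31.6, and the points of HSPB1 with melatonin lie below both points with DMSO.

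To ask how melatonin altered the chaperones, each melatonin library was compared with the DMSO library of the same time. HSPB1 was the only gene of the 10 past 2-fold, and it fell at both times. The inducible HSP70 pair HSPA1A and HSPA1B was higher with melatonin at 48 h. HSPH1, HSPE1, HSP90AB1, HSP90AA1, HSPD1 and DNAJB1 were lower at both times by less than 2-fold. Under 1 scaling DNAJB1 turned direction at 48 h and HSPD1 came close to no difference. A change was called at a log2 fold change of FPKM + 1 of at least 1 in size, among genes that reached 1 FPKM in 1 library of the pair or in both, and all 10 genes passed this filter in all 4 comparisons. At 24 h 1 of the 10 was called, where 4.35% of the 13582 genes tested were, and at 48 h 1 of 10, where 5.72% of 13805 were. Among genes that reached 5 FPKM in 1 library of the pair or in both, as all 10 did, 1.64% of 7183 and 4.4% of 7358 were called. With so few members, a single call cannot be set apart from these shares.

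HSPB1 (HSP27) is a small heat shock protein that also binds actin and protects cells from oxidative damage. Its level was 22.2 FPKM in DMSO 24 h, 10.2 in melatonin 24 h, 31.6 in DMSO 48 h and 9.67 in melatonin 48 h, from 665, 339, 1134 and 351 reads. Both melatonin libraries lay below both DMSO libraries, and the counting intervals of the melatonin and DMSO levels did not overlap. The log2 fold change of FPKM + 1 was -1.05 at 24 h, and the ratio of FPKM was 0.461 (0.404 to 0.527). At 48 h the log2 fold change was -1.61 and the ratio 0.306 (0.270 to 0.345). The call at 24 h is close to the threshold: the interval of the ratio includes 2-fold, and the log2 fold change was -0.98 after correction for GC content and length, -0.98 when the library size was the plain sum of reads and -0.91 as TPM. At 48 h it stayed between -1.73 and -1.55 under all 11 alternatives run. Of all 13805 genes tested at 48 h only 87 had a lower value, and of the 13582 at 24 h 339 did. HSPB1 had the highest GC content of the 10, 65.3% of its canonical transcript. Its annotated pseudogenes held no more than 2 reads in any library, and 13.5% of its 50-base stretches also occur in the transcript of HSPB1P1.

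HSPA1A and HSPA1B encode the same stress-inducible HSP70 and share most of their sequence: 75.1% of the 50-base stretches of HSPA1A occur in HSPA1B, so that reads could be split between the pair in ways that these files do not show. HSPA1A was at 23.0 FPKM in DMSO 24 h, 23.6 in melatonin 24 h, 25.7 in DMSO 48 h and 37.6 in melatonin 48 h. HSPA1B was at 41.7, 45.4, 31.6 and 58.7 FPKM in the same order. For both genes melatonin 48 h was the highest of the 4 libraries. At 24 h the ratio of melatonin to DMSO was 1.03 for HSPA1A (0.944 to 1.12, an interval that holds 1) and 1.09 for HSPA1B (1.03 to 1.16). At 48 h it was 1.46 for HSPA1A (1.36 to 1.56) and 1.85 for HSPA1B (1.75 to 1.97), both under 2-fold.

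Summed over the pair, HSPA1A and HSPA1B had 2975 reads in DMSO 24 h, 3511 in melatonin 24 h, 3150 in DMSO 48 h and 5358 in melatonin 48 h. The sum does not depend on how reads were split between both genes, provided that each shared read was counted once, which is not stated. The ratio of melatonin to DMSO was 1.07 (1.02 to 1.12) at 24 h and 1.68 (1.61 to 1.76) at 48 h. HSPA1B held 64.8%, 66.2%, 55.5% and 61.3% of these reads, in the same order of libraries. At 48 h, 468 of 13805 genes had a higher log2 fold change than HSPA1B (0.87) and 1419 a higher one than HSPA1A (0.53). With a 1.5-fold threshold HSPA1B joined HSPB1, giving 2 of 10 at 48 h beside 18.7% of all genes, while at 24 h the count remained 1 of 10 beside 11.6%.

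HSPA8 (HSC70), the constitutive HSP70, was far above the inducible pair in level, with 170.3 FPKM in DMSO 24 h, 144.5 in melatonin 24 h, 162.6 in DMSO 48 h and 176.0 in melatonin 48 h. The ratio of melatonin to DMSO was 0.849 (0.829 to 0.868) at 24 h and 1.08 (1.06 to 1.10) at 48 h, on opposite sides of 1. Per length, HSPA8 stood 2.64 times above the sum of HSPA1A and HSPA1B in DMSO 24 h, 2.09 times in melatonin 24 h, 2.84 times in DMSO 48 h and 1.83 times in melatonin 48 h. The 2 lowest of these values were those of the melatonin libraries.

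DNAJB1 (HSP40), the J-domain partner that delivers clients to HSPA1A and HSPA8, lay within a narrow range, with 62.4 FPKM in DMSO 24 h, 53.3 in melatonin 24 h, 60.6 in DMSO 48 h and 57.9 in melatonin 48 h. Its ratio of melatonin to DMSO was 0.854 (0.817 to 0.892) at 24 h and 0.955 (0.918 to 0.995) at 48 h. The direction at 48 h turned when the library size was the sum of reads on genes outside the mitochondrial genome. The log2 fold change was then 0.0033 in place of -0.065. That sum also replaced the deposited library size, and leaving out the mitochondrial genes alone was not run. TECR, which overlaps DNAJB1 on the opposite strand, held 1989 to 3029 reads, against 3969 to 4883 on DNAJB1.

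HSPH1 (HSP110), which acts as exchange factor of HSP70 and helps it to dissolve aggregates, was the lowest of the 10 in both DMSO libraries. It had 16.8 FPKM in DMSO 24 h, 12.0 in melatonin 24 h, 16.6 in DMSO 48 h and 12.0 in melatonin 48 h. Both melatonin libraries lay below both DMSO libraries. The ratio of melatonin to DMSO was 0.713 (0.673 to 0.756) at 24 h and 0.725 (0.686 to 0.766) at 48 h, so that the difference between the times was smaller than the counting error. No 50-base stretch of HSPH1 occurs in another gene.

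HSP90AB1, the constitutive cytosolic HSP90, and HSP90AA1, its inducible paralog, had different patterns. HSP90AB1 was at 960.5 FPKM in DMSO 24 h, 800.1 in melatonin 24 h, 853.6 in DMSO 48 h and 712.8 in melatonin 48 h. Its ratio of melatonin to DMSO was 0.833 (0.823 to 0.843) at 24 h and 0.835 (0.825 to 0.845) at 48 h, nearly the same value at both times. HSP90AA1 was at 278.7, 190.7, 149.7 and 137.3 FPKM in the same order of libraries, highest in DMSO 24 h and lower in both libraries of 48 h. Its ratio was 0.684 (0.672 to 0.697) at 24 h and 0.918 (0.898 to 0.938) at 48 h. HSP90AB1 stood above HSP90AA1 per length by a factor of 3.45 in DMSO 24 h, 4.20 in melatonin 24 h, 5.70 in DMSO 48 h and 5.19 in melatonin 48 h. Of 50-base stretches, 19.7% of HSP90AB1 and 19.1% of HSP90AA1 occur elsewhere, mainly in pseudogenes that held at most 0.377% as many reads as the gene itself.

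HSPD1 and HSPE1, the chamber and the lid of the mitochondrial chaperonin, share a bidirectional promoter region. HSPD1 was at 487.2 FPKM in DMSO 24 h, 399.1 in melatonin 24 h, 405.0 in DMSO 48 h and 384.6 in melatonin 48 h. HSPE1 was at 38.5, 27.3, 33.4 and 25.4 FPKM in the same order. For each gene both melatonin libraries lay below both DMSO libraries, but the counting intervals of HSPD1 in melatonin 24 h and DMSO 48 h overlapped. The ratio of melatonin to DMSO for HSPD1 was 0.819 (0.807 to 0.831) at 24 h and 0.9496 (0.936 to 0.963) at 48 h. Its log2 fold change at 48 h went from -0.074 to -0.0056 with library size set to the sum of reads outside the mitochondrial genome. For HSPE1 the ratio was 0.708 (0.653 to 0.766) at 24 h and 0.759 (0.702 to 0.822) at 48 h. HSPD1, which overlaps HSPE1 on the opposite strand, held 34362 to 37968 reads, against 1093 to 1450 on HSPE1. After HSPA1A and HSPA1B, HSPE1 shared the most sequence with other genes: 48.2% of its 50-base stretches occur elsewhere. In the read-through gene HSPE1-MOB4, to which at most 7 reads were given, 28.3% of all HSPE1 stretches occur. Of the stretches of HSPD1, 27.1% occur elsewhere.

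Across the 10 genes, 2 were higher and 8 lower with melatonin at 24 h. The median log2 fold change was then -0.28 beside 0.02 over all genes, of which 46.5% were lower. At 48 h 3 were higher and 7 lower, with a median of -0.10 beside -0.02 over all genes, of which 52.5% were lower. As TPM, a scaling that moved the median of all genes at 24 h to 0.17, the median of the 10 was -0.10 at 24 h, with the same 2 and 8. The difference between the log2 ratios of 48 h and 24 h was 0.77 for HSPA1B, 0.51 for HSPA1A, 0.42 for HSP90AA1, 0.35 for HSPA8 and -0.59 for HSPB1. For HSP90AB1 it was 0.00 and for HSPH1 0.02. No replicate was at hand to test any of these differences between times.

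**Figure D3:**
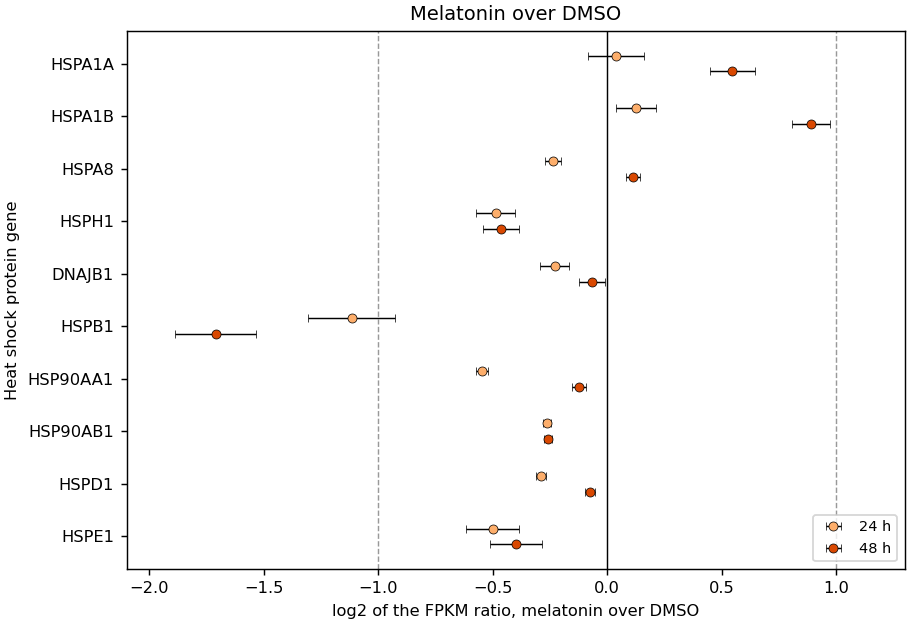
Log2 of the FPKM ratio of melatonin to DMSO for each heat shock protein gene at 24 h (pale orange) and 48 h (dark orange), with exact 95% Clopper-Pearson counting intervals and dashed lines at 2-fold. HSPB1 lies at -1.12 and -1.71, HSPA1B at 0.12 and 0.89, and HSPA8 on opposite sides of 0.

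The same libraries were compared by time, 48 h over 24 h, within DMSO and within melatonin. None of the 10 genes passed 2-fold in either, where 7.74% of 13854 genes did with DMSO and 4.15% of 13489 did with melatonin. At 1.5-fold 1 of 10 passed with DMSO (HSP90AA1), beside 23.8% of all genes, and 1 of 10 with melatonin (HSPA1A), beside 12.8%. HSP90AA1 had a ratio of 0.537 (0.527 to 0.548) with DMSO and of 0.720 (0.705 to 0.735) with melatonin, and its log2 fold change stayed negative under all 11 alternatives, between -0.90 and -0.39 with DMSO. HSPA1A had a ratio of 1.12 (1.03 to 1.21) with DMSO and of 1.59 (1.48 to 1.71) with melatonin. HSPB1 was higher at 48 h with DMSO by a ratio of 1.43 (1.296 to 1.57), whereas with melatonin the ratio was 0.946 and its interval (0.812 to 1.10) held 1.

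HSPA1B was lower at 48 h with DMSO, with a ratio of 0.759 (0.711 to 0.811), and higher with melatonin, with 1.29 (1.22 to 1.36). The lower value of HSPA1B in DMSO 48 h and the higher value in melatonin 48 h both enter its ratio between melatonin and DMSO at 48 h. For the sum of HSPA1A and HSPA1B the ratios of 48 h to 24 h were 0.886 (0.843 to 0.932) with DMSO and 1.39 (1.34 to 1.46) with melatonin. DNAJB1 and HSPH1 with DMSO, and HSPB1, HSPH1 and HSPE1 with melatonin, had intervals that held 1.

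The direction over time depended on the library scaling for most of the 10 genes. On the deposited scale 2 were higher and 8 lower with DMSO, with a median log2 fold change of -0.12 beside 0.00 over all genes. As TPM 9 were higher and only HSP90AA1 was lower, with a median of 0.39, but this scaling also moved the median of all genes to 0.46. Of all genes past 2-fold with DMSO, 45.2% were higher at 48 h on the deposited scale, 80.7% as TPM and 61.8% when scaled to the plain sum. With melatonin 5 were higher and 5 lower, with a median of -0.02 beside -0.04 over all genes, and 9 and 1 as TPM, with a median of 0.25 beside 0.23 over all genes. The share of reads on the mitochondrial genome also differed most between DMSO 24 h and DMSO 48 h. Scaled to the sum of reads outside the mitochondrial genome, 2 were higher and 8 lower with DMSO. The log2 fold change of HSP90AA1 was then -0.90. This scaling also replaced the deposited library size. The plain sum, mitochondrial genes included, gave 5 higher and 5 lower, so the effect of the mitochondrial share alone is not shown.

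**Figure D4:**
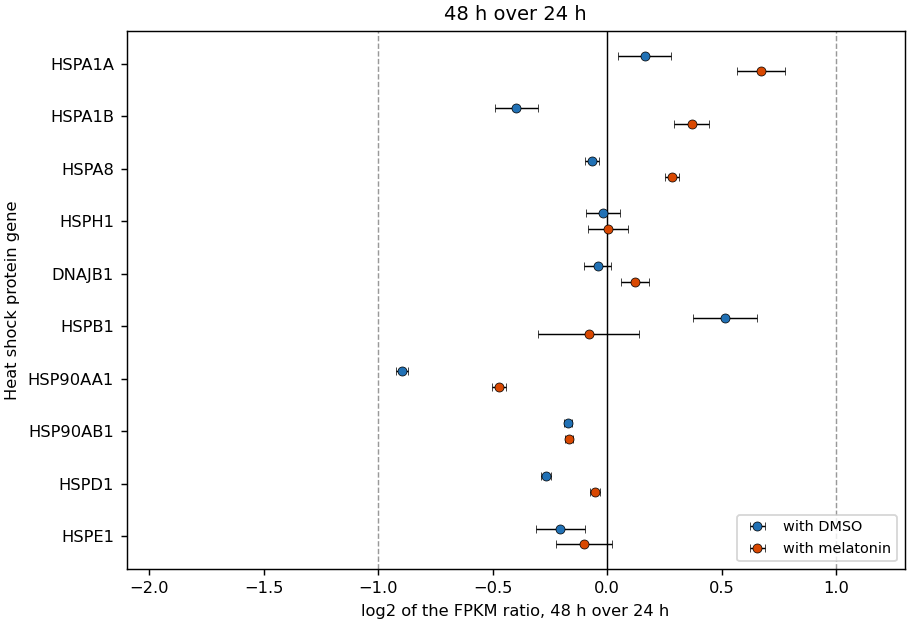
Log2 of the FPKM ratio of 48 h to 24 h for each heat shock protein gene with DMSO (blue) and with melatonin (orange), with exact 95% Clopper-Pearson counting intervals and dashed lines at 2-fold. HSP90AA1 is the lowest with DMSO at -0.90, and HSPA1B lies at -0.40 with DMSO and 0.37 with melatonin, on the deposited FPKM scale.

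The other chaperones, cochaperones and heat shock factor genes were described with 9 lists that held 120 genes beside the 10. Of these 120, 99 passed the filter at 24 h and 100 at 48 h, and none was called at 2-fold between melatonin and DMSO at either time, where 4.35% and 5.72% of all genes were. That result depends on the pseudocount. As plain ratios of FPKM, CRYAA passed 2-fold at 24 h, with 0.322 (0.199 to 0.505), and PAM16 at 48 h, with 2.03 (1.63 to 2.54). Both intervals include 2-fold. Without a pseudocount 983 of 13267 genes passed 2-fold at 24 h and 1581 of 13569 at 48 h. At 1.5-fold HTRA2 was higher and CRYAA lower at 24 h, and at 48 h PAM16, FKBP5, HSPA12A, TOMM34 and HTRA2 were higher and DNAJC2 lower. These are 2 of 99 and 6 of 100 genes, beside 11.6% and 18.7% of all genes. The shares were smaller among all genes that reached 5 FPKM in 1 library of the pair or in both. They were 6.74% and 16% at 1.5-fold, and 1.64% and 4.4% at 2-fold. HTRA2, a protease of the mitochondrial intermembrane space, was thus past 1.5-fold at both times, with 11.4 FPKM in DMSO 24 h, 17.7 in melatonin 24 h, 9.66 in DMSO 48 h and 15.3 in melatonin 48 h. The median log2 fold change of the listed genes was 0.00 at 24 h and -0.06 at 48 h. Over time only IER5, a feedback partner of HSF1, passed 2-fold with DMSO, with 2.37 FPKM at 24 h and 6.15 at 48 h, and no listed gene did with melatonin. On the deposited scale 1 was higher and 7 lower at 1.5-fold over time with DMSO, beside 23.8% of all genes, and 1 was lower with melatonin, beside 12.8%.

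The remaining genes of the HSP70 and HSP110 family had a median of 0.10 at 24 h and -0.05 at 48 h, over 8 genes tested. At 48 h the highest was HSPA12A, a distant relative of HSP70, with 2.18 FPKM in DMSO and 4.15 in melatonin. The lowest was HSPA14, a ribosome-associated HSP70, with 2.01 and 1.28 FPKM. HSPA6, the strictly inducible HSP70, was between 1.19 and 2.04 FPKM in the 4 libraries, near the filter. Of the J-domain partners, 10 of 19 were higher and 9 lower at 48 h, from DNAJC2 (log2 fold change -0.65, a ribosome-associated partner) to DNAJC13 (0.50, of endosomes). Of 11 exchange factors and regulators of HSP70, 6 were higher and 5 lower at 48 h, with BAG4 the highest (0.36) and BAG6 the lowest (-0.22).

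Of 20 cochaperones and relatives of HSP90 tested, 9 were higher and 11 lower at 48 h. FKBP5, an immunophilin known as a target of steroid receptors, was the highest, with 4.35 FPKM in DMSO 48 h and 8.09 in melatonin 48 h. PPID, a cyclophilin, was the lowest, with 13.2 and 9.53 FPKM. Of the 9 further small heat shock proteins only 2 passed the filter, CRYAA and HSPB11, with log2 fold changes of -0.09 and 0.31 at 48 h, and CRYAA had 1.18 FPKM in DMSO 48 h and 1.04 in melatonin 48 h. HSPB1 was the only member of that family above 5 FPKM in any library. CRYAA was also the 1 gene past 1.5-fold downward at 24 h, with 2.27 FPKM in DMSO and 0.731 in melatonin.

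Among 20 further mitochondrial chaperones and proteases, 10 were higher and 10 lower at 48 h. PAM16, of the import motor, was the highest, with 2.35 FPKM in DMSO 48 h and 4.78 in melatonin 48 h, and TIMM44, which anchors that motor, the lowest, with 19.5 and 13.9 FPKM. The TRiC chaperonin and prefoldin, which fold actin and tubulin, ranged from PFDN2 (-0.42) to PFDN5 (0.22) at 48 h, with 5 of 14 higher. HSF1, the transcription factor of the response, was at 14.99 FPKM in DMSO 24 h, 17.8 in melatonin 24 h, 15.9 in DMSO 48 h and 15.1 in melatonin 48 h. Of the 4 heat shock factors and regulators tested, 2 were higher and 2 lower at 48 h, from HSF2 (-0.11) to HIKESHI (0.09), the nuclear carrier of HSP70.

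Other genes known as heat shock factor targets were mostly lower at 48 h, the time at which HSPA1A and HSPA1B were higher. Of 19 tested, 2 were higher and 17 lower, with a median log2 fold change of -0.27, where 52.5% of all genes were lower and the median was -0.02. No gene of the list passed 2-fold or 1.5-fold. Scaled to the plain sum or to the sum of reads outside the mitochondrial genome, 17 of 19 were also lower. After the GC correction 17 of 19 were lower, and as TPM 19 of 21. The list ranged from SERPINH1 (HSP47, the collagen chaperone), with 34.1 FPKM in DMSO 48 h and 25.4 in melatonin 48 h, to HSPA4L, with 2.20 and 3.08. At 24 h 8 were higher and 11 lower, with a median of -0.08 that turned to 0.08 as TPM. BAG3, a strongly inducible partner of HSP70, was at 12.8 FPKM in DMSO 24 h, 10.8 in melatonin 24 h, 11.9 in DMSO 48 h and 10.8 in melatonin 48 h. Some genes of this list also stand in the lists of HSP70 and HSP90 partners.

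**Figure D5:**
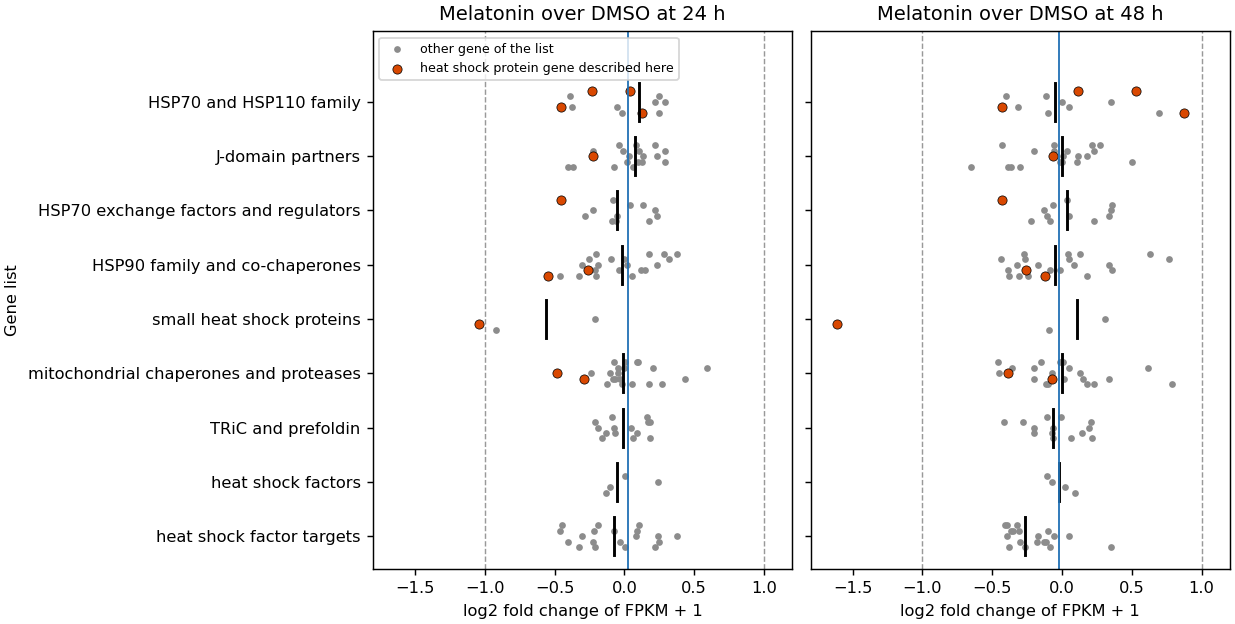
Log2 fold change of FPKM + 1, melatonin over DMSO, at 24 h (left) and 48 h (right) for the tested genes of 9 lists. Orange points are the heat shock protein genes described here, grey points the other genes of each list (spread vertically for legibility only), black bars the median of the grey points, the blue line the median of all genes tested and dashed lines 2-fold. HSPB1 is the only point beyond 2-fold at either time, and the heat shock factor targets have a median of -0.27 at 48 h.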

How the data were processed

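Polyadenylated RNA of HepG2 cells was sequenced as paired-end reads, 1 library per condition. By the methods of the study the authors mapped the reads to hg38 with MapSplice and took expression with Cufflinks, and the submitters' processing notes list Bowtie2 2.0.6, TopHat2 2.0.9, Cufflinks 2.1.1 and Cuffdiff 2.1.1. The authors deposited FPKM per Ensembl gene with a gene length, without read counts. The annotation release, strandedness and treatment of multiply mapped reads are not given in the sources used here.

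In each library 100% of the values above 0, multiplied by length, were whole multiples of a common step (within 0.05 of a whole number), which gave the reads per gene. How whole reads arose from Cufflinks, and how the library size was set, is not stated. Fold changes were log2((FPKM + 1)/(FPKM + 1)), for genes that reached 1 FPKM in 1 library of the pair or in both. A change was called at 2-fold over all genes tested. Such fold changes understate the change of low genes, and plain ratios carry no pseudocount. At the floor of 3 reads a gene of 1 kb has 0.135 to 0.163 FPKM. The 10 genes, the 9 lists and the alternatives were chosen with earlier results of these data known. All 10 genes are named, and of each list any gene called between melatonin and DMSO and the highest and lowest gene tested at 48 h; HSPA6, BAG3, HSF1, HTRA2, TOMM34, IER5 and CRYAA at 24 h were named after their values were seen. Most listed genes enter only the counts and medians. Promoter windows are those of RefSeq (GRCh38.p14), and exons and shared 50-base stretches those of GENCODE 44, which has all 10 genes on the same chromosome and 2 of them with the same start and end. Read recovery, calls and intervals were tested on simulated Poisson reads scaled by the same formula. That checks the calculation only, not how the deposited FPKM were made. Python 3.11.15, numpy 2.4.6, pandas 2.3.3, scipy 1.17.1 and matplotlib 3.10.9 were used.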

Additional observations from a re-analysis of the deposited data

Results flagged for a closer look

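HSPA8, the constitutive HSP70, was lower with melatonin at 24 h and higher at 48 h. The log2 of its FPKM ratio was -0.24 at 24 h and 0.11 at 48 h, each with a counting interval that did not hold 0. With 1 library per condition the difference between the times was not tested. As TPM the log2 fold changes were -0.06 and 0.06.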

How the results depend on the processing

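The 12 alternatives, of which a correction for GC content and length was chosen after seeing the data, kept the sign of 414 of 432 values of single genes. That count overstates the agreement, because another pseudocount or FPKM filter, or the sum of HSPA1A and HSPA1B, cannot turn the sign of a single gene. Between melatonin and DMSO only DNAJB1 at 48 h turned, and all other turns were in the comparisons over time. At 24 h the number of the 10 genes past 2-fold went from 1 to 0 as TPM, when scaled to the plain sum of reads and with the GC correction, in each case because HSPB1 came to lie just under 2-fold. The median log2 fold change at 24 h (-0.28) was -0.30 when centred on all genes, -0.10 as TPM and -0.21 when scaled to that sum. At 48 h the median (-0.10) was -0.15 as TPM and -0.064 with the plain sum. It was -0.030 with the sum of reads outside the mitochondrial genome and -0.13 with the GC correction. With a 1.5-fold threshold 2 genes were called at 48 h, 1 over time with DMSO and 1 over time with melatonin. Over time with DMSO TPM gave 1 gene past 2-fold (HSPB1) and a median of 0.39, the plain sum 0.043 and the sum of HSPA1A and HSPA1B as 1 gene -0.17. Over time with melatonin the median was 0.25 as TPM and 0.10 with the plain sum. The plain sum moved the median of all genes to 0.14 over time with DMSO. Of all genes called at 24 h, 32.7% were higher with melatonin on the deposited scale, 45.8% as TPM and 46.4% with the GC correction, and of those called over time with melatonin 58.9%, 72.9% and 50.3%. The number of all genes called at 24 h was 591 on the deposited scale, 1208 with a pseudocount of 0.1, 983 with none, 118 at an FPKM of at least 5 and 1561 as TPM. No replicate could be left out, because each condition has 1 library, and a fit of treatment with time as a block, which would take both times as replicates of the treatment, was not run. Depth did not limit these genes, which had at least 339 reads in every library, but no interval here covers the spread between cultures.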
